A study of Danio rerio with 6 samples.

Results

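Solute carriers are membrane proteins that move sugars, amino acids, ions, metals, nucleotides and metabolites across the cell surface and the membranes of organelles. The 137 genes described here are those whose symbol in the annotation of the array starts with slc and a digit or with slco, less 2 left out by the rule, out of 8793 genes named on the array. They are measured by 157 probe sets and fall into 40 families. Where a gene has several probe sets, the brightest on average (in log2) stands for it. The symbol brings in 2 genes that are not carriers: slc4a1ap encodes a protein named for binding a slc4 carrier, and slc7a6os is named for lying opposite slc7a6. They are kept apart from the carrier classes. No filter on low values was used, so all 137 genes were tested.

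The RNA came from AB wild-type zebrafish at 52 hours post fertilization. There were 3 pools of retina and 3 pools of retina with the retinal pigment epithelium (RPE) attached, each pool made of 10 dissected tissues; the latter are called RPE-attached where single replicates are named. The RPE is the pigmented cell layer behind the photoreceptors, and the second group holds retina and RPE together, so every change is that of a mixture. The purpose of the comparison was to find which transcripts the RPE adds, and the study itself deducted a yield-adjusted retina value, a step not repeated here.

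In the eye, carriers of the RPE move glucose and ions between the blood and the photoreceptors and carry lactate and water away from the retina. Neurons of the retina load transmitters into synaptic vesicles with vesicular carriers, and glial cells clear glutamate with carriers of the first slc family. Mitochondrial carriers of slc25, the largest family in humans, exchange metabolites with the cytosol.

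Replicate arrays correlated at r = 0.994 to 0.997 over probe sets, and arrays of different groups at 0.980 to 0.988. All 7 measured RPE markers rose, their summed intensity lying at 558 to 626 for retina pools and at 2872 to 3974 for pools with RPE, so the label of the second group holds. Of 9 markers of retinal neurons and progenitors, 5 fell and 0 rose (sums of 16832 to 20273 and 14027 to 15289). Markers of other cells were also measured, and many rose in the pools with RPE. Their sums were 301 to 349 and 913 to 1070 for neural crest and pigment cells (4 of 4 rose), 420 to 441 and 763 to 1249 for mesenchyme and cartilage (5 of 6), 2815 to 3684 and 3758 to 5632 for erythrocytes (3 of 5), and 351 to 386 and 553 to 634 for muscle (3 of 6). They were 229 to 315 and 372 to 451 for leukocytes (4 of 5), 180 to 217 and 316 to 352 for vessels (3 of 3), 192 to 229 and 352 to 412 for skin (2 of 6 rose and 1 fell), and 72.8 to 76.2 and 96.2 to 103 for the 1 lens gene, which rose. A sum follows its brightest genes. The skin sum rose through ahnak (means of 67.1 and 210) and krt94 (39.3 and 80.3). The skin genes krt4, krt5 and cldne were not called, and epcam fell. Most of the erythrocyte sum was hbae3 (3095 and 4273). No marker was at 0. The part of these cells in the changes below was not tested. From every pool, with or without RPE, 33 ng of RNA went into the labelling, an input that does not give the yield of a pool. In such samples, a cell type's smaller share of the RNA, fewer of its cells and less RNA per cell cannot be told apart.

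In the pools with RPE attached, 17 solute carrier genes were called higher and 27 lower than in retina, and 93 were not called. A gene was called at an adjusted p under 0.05 in limma, with adjustment over all 15502 probe sets tested. The called share was 32.1%, against 36.4% of all genes, so over all levels together a solute carrier was called about as often as any named gene. By level of intensity the shares differed, as given below. The share that rose was 12.4%, against 19.4% of all genes, and the share that fell was 19.7%, against 17% of all genes. The median log2 change, retina with RPE minus retina, was 0.03 over the carriers and 0.04 over all genes. The carriers ranged from -1.23 for slc25a38b to 1.65 for slc2a11b. The 6 values separated without overlap in 63 of the 137 genes, against 50.7% of all genes; 32 lay higher with RPE (28.3% of all genes) and 31 lower (22.4%). At 2-fold or more there was 1 called rise and 1 called fall among the 137 genes, near the share of all genes (126 such calls of 8793, 1.43%). At 1.5-fold or more there were 3 called rises and 16 called falls, 13.9% of the 137 genes against 10.0% of all genes. Of all genes, 3.89% were called rises and 6.12% called falls of this size. Rises made up 15.8% of such calls among the 137 genes and 38.9% among all genes.

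**Figure D1:**
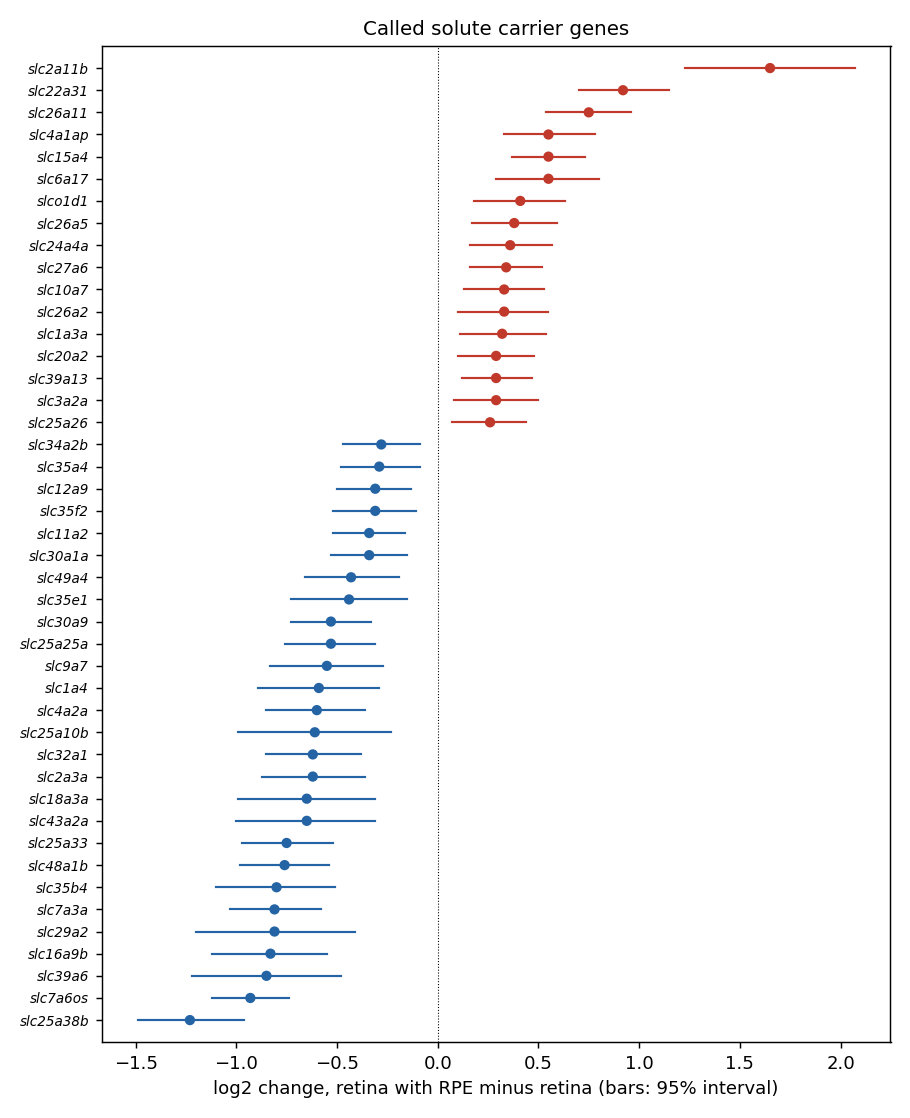
Log2 change of the 44 called solute carrier genes, retina with RPE minus retina, with the 95% interval from limma; red points rose and blue points fell. The 17 rises lie mostly under 0.6, with slc2a11b at 1.65 standing out, and the 27 falls reach -1.23 at slc25a38b.

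Classes were set by family number, so a class can hold a member whose cargo or place differs from its name. Among families 2, 5 and 37, grouped as sugar carriers (13 genes), 1 rose, 1 fell and 11 were not called. The called share was 15.4%, against 36.4% of all genes. When all genes were split into 3 equal groups by mean log2 value, most of the 13 lay in the dim group. In that group 15.9% of solute carrier genes and 29.7% of all genes were called. The part of level in the class share was not tested. The 3 members of family 5, slc5a6b, slc5a8l and slc5a12, are relatives of mammalian vitamin and monocarboxylate carriers rather than of sugar carriers, and none was called. The gene that rose was slc2a11b, a relative of the glucose carriers that is needed in medaka for the pigment of xanthophores and leucophores. Its retina pools read 14.6, 16.8 and 13.5, and its pools with RPE 48.4, 62.2 and 34.1. Every pool with RPE lay above every retina pool, and the pools with RPE differed more among themselves than those of retina. The change was 3.14-fold (95% interval 2.35 to 4.20, adjusted p = 0.000341). The retina values are dim, and a dim probe set can understate a fold. In the same pools all 4 measured markers of neural crest and pigment cells rose, from foxd3 at 1.66-fold to gch2 at 7.41-fold. All 7 RPE markers rose too, from tyr at 1.37-fold to rpe65a at 12.2-fold. Which cells account for the slc2a11b change was not tested.

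The sugar carrier that fell was slc2a3a, which encodes a glucose carrier known in mammals from neurons. It read 359, 328 and 272 in retina and 208, 221 and 192 with RPE. All 3 pools with RPE lay lower, by 1.54-fold (1.29 to 1.83, adjusted p = 0.00333). The related genes slc2a2, slc2a8, slc2a9l1 and slc2a11l had log2 changes of -0.03 to 0.16 and were not called. All were dim, at 9.15 to 10.9, 17.9 to 20.8, 9.35 to 12.2 and 40.5 to 49.1 over the pools of both groups. Whether genes at such levels were expressed was not tested. The gene slc2a10 read 36.1, 56.0 and 43.4 with RPE against 32.8 to 38.9 in retina, overlapping groups with an adjusted p of 0.110. The class median, family 5 included, was 0.09. The glucose carrier genes slc2a1a and slc2a1b were looked for and had no entry among the 137 genes.

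**Figure D2:**
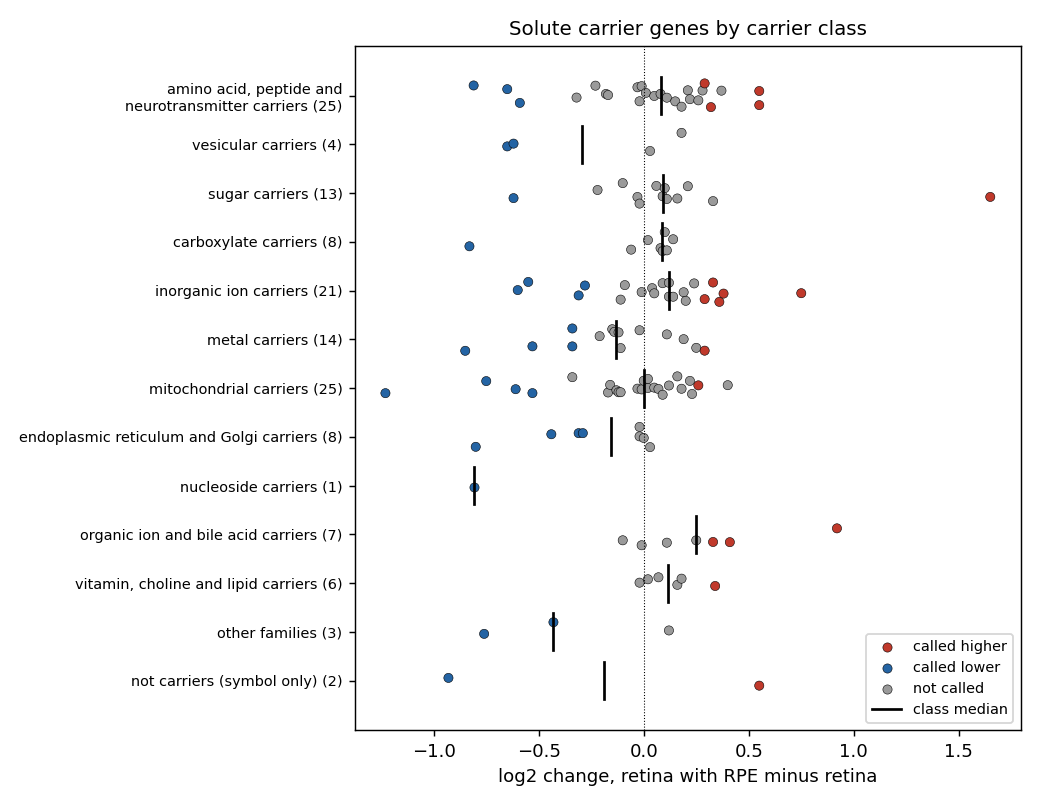
Log2 change of each of the 137 genes by carrier class, with the number of genes in parentheses, red and blue for called genes, grey for genes not called and a black bar at the class median. Medians run from -0.81 for the single nucleoside carrier to 0.25 for organic ion and bile acid carriers.

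Families 17, 18 and 32, grouped as vesicular carriers, include those that fill synaptic vesicles. Of their 4 measured genes, 2 fell and 0 rose, where 17% of all genes fell and 19.4% rose. A further gene whose product works in synaptic vesicles, slc6a17, is counted with the amino acid carriers by its family and rose. The gene slc32a1, whose product loads GABA and glycine and which marks inhibitory neurons such as amacrine and horizontal cells, read 595, 751 and 675 in retina and 452, 461 and 402 with RPE. The lowest retina pool was above the highest pool with RPE, and the fall was 1.53-fold (1.30 to 1.81, adjusted p = 0.00248). The vesicular acetylcholine carrier gene slc18a3a, a marker of cholinergic neurons, read 187, 220 and 150 against 119, 136 and 99.4, a fall of 1.57-fold (1.24 to 1.98, adjusted p = 0.00983). Of 9 markers of retinal neurons and progenitors 5 fell and 0 rose, the rest not being called. A link between them and these 2 falls was not tested. The other 2 genes of these families, the lysosomal sialic acid carrier gene slc17a5 and the vesicular nucleotide carrier gene slc17a9b, had log2 changes of 0.03 and 0.18 and were not called.

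Amino acid, peptide and neurotransmitter carriers (25 genes of families 1, 3, 6, 7, 15, 38 and 43) had 4 rises, 3 falls and 18 genes not called, with a median of 0.08. The called share was 28%, against 36.4% of all genes. The gene slc7a3a, which encodes a carrier of cationic amino acids such as arginine, read 587, 671 and 538 in retina and 346, 358 and 320 with RPE. That is a fall of 1.75-fold (1.49 to 2.05, adjusted p = 0.000555) with a wide gap between the groups. The gene slc43a2a, for a carrier of large neutral amino acids, read 444, 325 and 405 against 307, 217 and 225, a fall of 1.57-fold (1.24 to 1.99, adjusted p = 0.00973) with the nearest pools of both groups close together. The gene slc1a4, for a carrier of alanine and serine, fell 1.51-fold (adjusted p = 0.00840).

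The amino acid class rose through slc6a17, slc15a4, slc1a3a and slc3a2a. The gene slc6a17, whose product carries neutral amino acids into synaptic vesicles in mammals, read 43, 48.6 and 52.5 in retina and 60.6, 77.1 and 73.0 with RPE, a rise of 1.46-fold (1.22 to 1.74, adjusted p = 0.00629). The gene slc15a4, for a lysosomal carrier of peptides and histidine, read 38.6, 38.9 and 41.4 against 58.8, 58.8 and 56.4, also 1.46-fold (1.29 to 1.66, adjusted p = 0.00119). Its pools agreed closely within each group. The glutamate carrier gene slc1a3a, known from Müller glia, rose 1.25-fold (1.08 to 1.45, adjusted p = 0.0265), from 96.1 ± 7.86 to 120 ± 8.01 (SD, n = 3). It was not called without retina replicate 2 (adjusted p = 0.0729) or RPE-attached replicate 1 (0.0761) or 3 (0.0962).

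The paralogs slc3a2a and slc3a2b encode the heavy chain shared by several amino acid exchangers. Each has 1 probe set of its own, and their log2 changes differed in sign, but only slc3a2a was called. The probe set of slc3a2a read 105, 99.0 and 93.8 in retina and 120, 133 and 112 with RPE, a log2 change of 0.29 ± 0.0945 (SE, adjusted p = 0.0376). Without retina replicate 2 (0.0639) or 3 (0.0968) or RPE-attached replicate 1 (0.0815) or 2 (0.134) it was not called, nor under cyclic loess (0.0647), centring on ribosomal protein genes (0.0541) or eBayes with trend and robust (0.0519). The probe set of slc3a2b read 1391, 1774 and 1631 against 1470, 1182 and 1183, overlapping groups with a log2 change of -0.32 ± 0.121 (adjusted p = 0.0634). A further 5 probe sets listed with slc3a2b and 6 calmodulin genes cannot be given to either and were left out. The glutamate carrier gene slc1a2b read 2593 to 2835 in retina and 2106 to 2681 with RPE, with overlapping groups (log2 change -0.23, adjusted p = 0.122). All 6 genes of family 38, which take up glutamine and related amino acids, were not called, with slc38a5b highest at 0.37 (adjusted p = 0.0718).

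**Figure D3:**
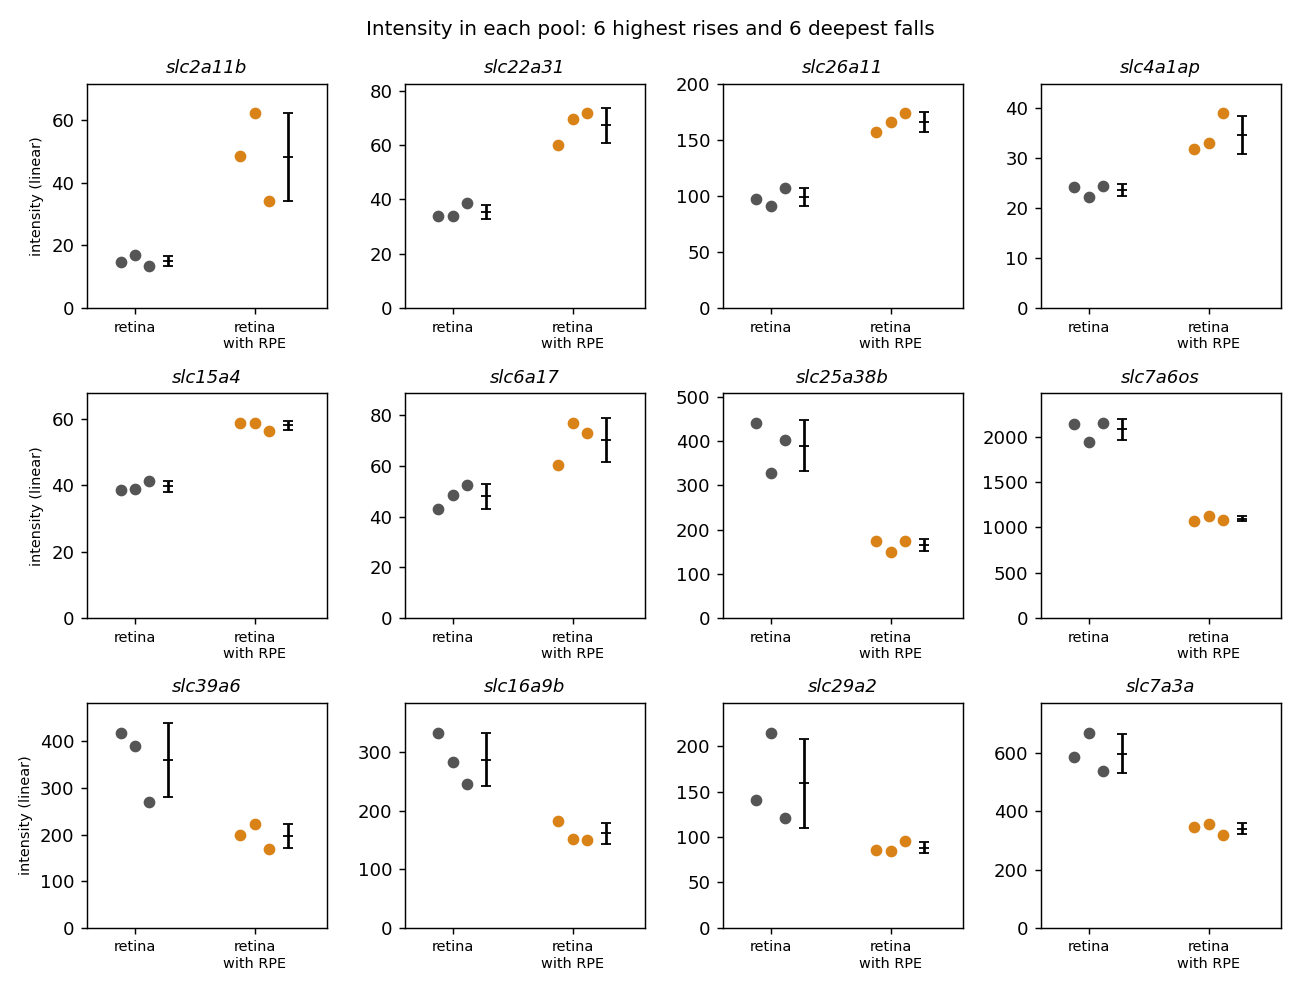
Linear intensity in each pool for the 6 called genes with the highest log2 change and the 6 with the lowest; grey points are retina pools, orange points are pools of retina with RPE, and the bar beside each group is the mean with its SD (n = 3). In each of the 12 panels the groups do not overlap, and the slc2a11b pools with RPE run from 34.1 to 62.2.

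Carboxylate carriers had 1 fall and 7 genes not called of 8 (median 0.09), 12.5% called against 36.4% of all genes. Most of the 8 lay in the dim group, where 15.9% of solute carrier genes and 29.7% of all genes were called. Whether their level accounts for the low share was not tested. The gene slc16a9b, whose human relative is linked to carnitine, read 333, 283 and 245 in retina and 182, 151 and 149 with RPE, a fall of 1.78-fold (1.46 to 2.17, adjusted p = 0.00144). Its paralog slc16a9a, which is dim, read 24.2 to 30.8 and 25.7 to 27.1, with overlapping groups. The lactate carriers of family 16 were represented by slc16a1b and slc16a3b. Their relatives slc16a1a, slc16a7 and slc16a8 were looked for and had no entry among the 137 genes. The gene slc16a1b read 26.7, 27.4 and 25.3 against 26.1, 28.4 and 29.6 (log2 change 0.08, 95% interval of the fold 0.923 to 1.21, adjusted p = 0.503), and its sign turned under cyclic loess and quantile normalization. The gene slc16a3b read 73.2, 60.3 and 60.5 against 64.3, 75.9 and 57.5 (0.02, interval 0.842 to 1.23, adjusted p = 0.892), with a sign that turned under the same settings and without retina replicate 2 or 3 or RPE-attached replicate 2. Their partner bsg, which encodes basigin, the protein that brings lactate carriers to the cell surface, read 3168, 2801 and 2968 against 2535, 2586 and 2485. Its groups did not overlap, but it was not called (adjusted p = 0.0585).

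Inorganic ion carriers (21 genes) had 5 rises, 4 falls and 12 genes not called, 42.9% called against 36.4% of all genes, with a median of 0.12. Family 26, of anion and sulfate carriers, gave 3 of the 5 rises and no called fall among its 5 genes. Of all genes 19.4% rose. The gene slc26a11, for a carrier of sulfate and chloride, read 97.6, 91.4 and 107 in retina and 157, 166 and 174 with RPE. The gap between the groups exceeded the spread within either, and the rise was 1.68-fold (1.46 to 1.94, adjusted p = 0.000513). The gene slc26a5, the fish relative of the motor protein prestin of mammalian hair cells, rose 1.30-fold (1.13 to 1.51), from 99.9 ± 9.92 to 130 ± 2.50 (adjusted p = 0.0121). The sulfate carrier gene slc26a2 rose 1.25-fold (adjusted p = 0.0316) and was not called under cyclic loess (0.157) or quantile normalization (0.177), or with a pseudocount of 16 (0.0543). It also lost its call without retina replicate 1 (0.0614) or 3 (0.0833) or RPE-attached replicate 2 (0.0971) or 3 (0.118).

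The other ion carriers that rose were slc24a4a and slc20a2. The gene slc24a4a, for an exchanger of sodium and potassium for calcium, read 163, 137 and 143 against 199, 187 and 183, a rise of 1.29-fold (1.11 to 1.49, adjusted p = 0.0147), not called without RPE-attached replicate 1 (0.0562). The phosphate carrier gene slc20a2, dim at 14.5 to 15.5 in retina and 17.5 to 19.3 with RPE, rose 1.22-fold (adjusted p = 0.0245) and was not called under cyclic loess (0.0996) or quantile normalization (0.0942), or with a pseudocount of 16 (0.0572). Without retina replicate 1 (0.0604) or 2 (0.0532) or RPE-attached replicate 1 (0.0538) or 3 (0.0892) its call was lost too. The sodium and bicarbonate carrier gene slc4a4b read 47.9, 50.6 and 43.3 against 42.9, 51.5 and 58.0 and was not called (log2 change 0.09, adjusted p = 0.565). Its sign turned under cyclic loess and quantile normalization.

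The ion carriers that fell were slc4a2a, slc9a7, slc12a9 and slc34a2b. The bicarbonate and chloride exchanger gene slc4a2a fell by its brightest probe set, from 332 ± 34.4 to 219 ± 21.9, 1.52-fold (adjusted p = 0.00321). A second probe set of slc4a2a rose, from 61.9 to 81.0 in retina to 86.4 to 98.2 with RPE (log2 change 0.37, adjusted p = 0.0273), so its direction depends on the probe set. The gene slc9a7, for an exchanger of sodium and protons in the Golgi, fell 1.46-fold (adjusted p = 0.00868). The gene slc12a9 fell by 0.31 on the log2 scale (adjusted p = 0.0163) and was not called without RPE-attached replicate 2 (0.0573) or 3 (0.0521), after centring on ribosomal protein genes (0.0667), or with the median over its probe sets (0.559). Its other probe set, dim at 11.4 to 11.7 in retina, lay higher in every pool with RPE, at 12.7 to 13.9. That probe set was not called (log2 change 0.19, adjusted p = 0.101). The phosphate carrier gene slc34a2b fell by 0.28 (adjusted p = 0.0280), but its call was lost when any single array was left out except retina replicate 3 (0.0597 to 0.0792), and after centring on ribosomal protein genes (0.149) or with trend and robust eBayes (0.0512).

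Metal carriers (14 genes) had 4 falls, 1 rise and 9 genes not called, with a median of -0.13. The called share was 35.7%, near the 36.4% of all genes. The zinc importer gene slc39a6 read 419, 391 and 269 in retina and 199, 223 and 170 with RPE. Retina replicate 3 lay nearest to the pools with RPE, and the fall was 1.80-fold (1.4 to 2.32, adjusted p = 0.00423). The zinc carrier gene slc30a9 fell 1.44-fold by its brightest probe set (928, 953 and 1028 against 669, 718 and 630, adjusted p = 0.00224), while both of its dimmer probe sets rose, by log2 changes of 0.32 and 0.51 (adjusted p = 0.0312 and 0.00440). Its direction therefore depends on the probe set.

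The zinc exporter gene slc30a1a, dim at 29.7 to 32.3 in retina and 23.3 to 25.5 with RPE, fell 1.26-fold (adjusted p = 0.0132) and was not called without RPE-attached replicate 1 (0.0525) or after centring on ribosomal protein genes (0.0660). The iron importer gene slc11a2 read 189, 193 and 193 against 145, 155 and 155, with little spread in either group, and fell 1.26-fold (1.12 to 1.43, adjusted p = 0.0105). Centring on ribosomal protein genes ended that call (0.0585). The 1 metal carrier that rose was slc39a13, for a zinc carrier, from 32.3 ± 0.730 to 39.6 ± 0.747 (adjusted p = 0.0183). It was not called under cyclic loess (0.184) or quantile normalization (0.216), or without RPE-attached replicate 1 (0.0506) or 2 (0.0614). The iron exporter gene slc40a1 read 241, 240 and 223 in retina and 243, 236 and 337 with RPE, where 1 pool stood above the rest (log2 change 0.19, adjusted p = 0.281).

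Of the 25 mitochondrial carriers of family 25, 1 rose, 4 fell and 20 were not called, with a median of 0.00. The called share was 20%, against 36.4% of all genes. The deepest fall of any solute carrier was that of slc25a38b, whose product supplies mitochondria with glycine for heme synthesis in zebrafish, yeast and humans. It read 442, 328 and 402 in retina and 174, 150 and 174 with RPE. The highest pool with RPE was far below the lowest retina pool, and the fall was 2.34-fold (1.94 to 2.82, adjusted p = 0.000184). The gene slc25a33, for a carrier of pyrimidine nucleotides, read 257, 220 and 247 against 152, 151 and 129, a fall of 1.68-fold (1.44 to 1.96, adjusted p = 0.000799).

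The gene slc25a25a, for a carrier of ATP-magnesium and phosphate, fell 1.45-fold (adjusted p = 0.00361), and the dicarboxylate carrier gene slc25a10b fell 1.53-fold (adjusted p = 0.0207), not called without RPE-attached replicate 2 (0.0621) or 3 (0.0807) or with a pseudocount of 16 (0.0512). The 1 that rose was slc25a26, the carrier of the methyl donor S-adenosylmethionine, by 1.19-fold (adjusted p = 0.0361). Its call was lost when any single array was left out except retina replicate 3 (0.0627 to 0.101), under the filter on dim probe sets (0.0531) and with trend and robust eBayes (0.0717). The phosphate carrier gene slc25a3b read 5037, 5103 and 5299 in retina and 4635, 4934 and 4543 with RPE, separated but not called (log2 change -0.13, adjusted p = 0.243). The aspartate and glutamate carrier gene slc25a12 was at 0.22 (adjusted p = 0.100) and slc25a55a, for a glutamate carrier, at 0.23 (adjusted p = 0.0684).

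The mitochondrial iron importer gene slc25a37 was dim at 19.1 to 22.3 and 21.1 to 25.5 and was not called (log2 change 0.18, adjusted p = 0.192).

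Family 35, grouped as carriers of the endoplasmic reticulum and Golgi, holds many that bring nucleotide sugars to the enzymes that build glycans. Carriers of these organelles in other families, such as slc9a7, are counted elsewhere. Of the 8 genes of family 35, 4 fell and 0 rose, where 17% of all genes fell, with a median of -0.15. The gene slc35b4, for a carrier of UDP-xylose and UDP-N-acetylglucosamine, read 182, 163 and 127 in retina and 81.2, 97.6 and 89.5 with RPE, a fall of 1.75-fold (1.42 to 2.15, adjusted p = 0.00208). The calls of the other 3 were each lost when single arrays were left out. The gene slc35e1 fell by 0.44 on the log2 scale (adjusted p = 0.0274) and was not called without retina replicate 1 or 3 or any of the 3 arrays with RPE (0.0507 to 0.109), or with a pseudocount of 16 (0.0543). The gene slc35f2 fell by 0.31 (adjusted p = 0.0242) and lost its call without retina replicate 1 or RPE-attached replicate 1 or 3 (0.0734 to 0.0808) and after centring on ribosomal protein genes (0.114). The gene slc35a4 fell by 0.29 (adjusted p = 0.0327), lost its call without any single array except retina replicate 3 (0.0621 to 0.0958), and was not called under cyclic loess (0.0822), quantile normalization (0.117), centring on ribosomal protein genes (0.165) or trend and robust eBayes (0.0574). A dimmer probe set of slc35f6 rose by 0.32 (adjusted p = 0.0327), while the brighter one was not called.

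Of 7 organic ion and bile acid carriers, 3 rose and 0 fell, where 19.4% of all genes rose and 17% fell, with a median of 0.25. The calls of slco1d1 and slc10a7 were lost when single arrays were left out. The gene slc22a31, of a family that carries organic cations and anions, read 33.8, 34 and 38.5 in retina and 60, 69.7 and 71.8 with RPE. Each pool with RPE was well above each retina pool, a rise of 1.89-fold (1.62 to 2.21, adjusted p = 0.000301), the second highest of the solute carriers. The gene slco1d1, of the organic anion carriers, was dim at 19.6 to 24 and 26.6 to 30.2 and rose 1.33-fold (adjusted p = 0.0121). It was not called under cyclic loess (0.0532), under quantile normalization (0.0592) or without RPE-attached replicate 2 (0.0534). The gene slc10a7, of the bile acid carrier family, rose from 92.3 ± 0.853 to 116 ± 9.08 (adjusted p = 0.0173) and was not called without RPE-attached replicate 1 (0.0646) or 3 (0.0649).

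Of 6 vitamin and lipid carriers 1 rose and 0 fell, 16.7% called against 36.4% of all genes. Most of the 6 lay in the dim group, where 15.9% of solute carrier genes and 29.7% of all genes were called. The riser slc27a6, for a fatty acid transport protein, read 54.1, 52.6 and 53.1 against 70.5, 65.8 and 66.4, 1.27-fold (1.12 to 1.44, adjusted p = 0.00990). Cyclic loess (0.0722) and quantile normalization (0.0672) ended that call. The 1 nucleoside carrier, slc29a2, read 141, 215 and 121 in retina and 85.3, 84.4 and 95.2 with RPE. The retina pools were uneven, and the fall was 1.75-fold (1.33 to 2.30, adjusted p = 0.00760). Among the 3 genes of other families, slc48a1b, which encodes a heme carrier of endosomes and lysosomes, read 113, 90.9 and 103 in retina and 58.3, 63.2 and 59.2 with RPE. Its groups were well apart, with a fall of 1.69-fold (1.45 to 1.98, adjusted p = 0.000672). The gene slc49a4 fell by 0.43 on the log2 scale (adjusted p = 0.0119, but 0.0542 without RPE-attached replicate 2 and 0.0552 after centring on ribosomal protein genes) and the urea carrier gene slc14a2 was not called.

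The 2 genes that carry the symbol without being carriers were both called. The gene slc7a6os read 2142, 1940 and 2152 in retina and 1068, 1123 and 1084 with RPE, a fall of 1.90-fold (1.67 to 2.17, adjusted p = 0.000129). The gene slc4a1ap rose 1.47-fold (1.26 to 1.71, adjusted p = 0.00310), from 23.6 ± 1.19 to 34.7 ± 3.88. Without both, 16 carriers of 135 rose and 26 fell, 31.1% called.

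Other transport genes were counted beside the carriers. Of 21 ion pump genes 5 rose and 3 fell (38.1% called, against 36.4% of all genes). The sodium pump subunit genes atp1a3b, atp1b1b and atp1b2a rose 1.27-fold, 1.33-fold and 1.34-fold. Of the same pump, atp1b3a fell 1.49-fold and atp1a1b was not called (log2 change 0.00). Of 14 ABC transporter genes 3 rose and 3 fell (42.9% called, against 36.4%). Of 10 genes that belong to solute carrier families under other symbols, 3 rose and 0 fell, where 19.4% of all genes rose and 17% fell. Among the 3 was the ammonia channel gene rhcgb at 1.66-fold (1.43 to 1.93), from 27.3 ± 2.70 to 45.3 ± 2.29. Of 11 genes for partners of carriers, water channels included, 2 rose and 1 fell (27.3% called, against 36.4% of all genes). The water channel gene aqp1a.1, which red cells and vessels also express, read 133, 180 and 158 in retina and 407, 459 and 339 with RPE, 2.56-fold (2.07 to 3.17, adjusted p = 0.000212). The carbonic anhydrase gene cahz fell 1.55-fold (adjusted p = 0.0124).

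Rises outnumbered falls among dim genes and falls outnumbered rises among bright ones, for the carriers and for all genes. When all 8793 genes were split into 3 equal groups by mean log2 value, 63 carriers lay in the dim group, with 8 rises and 2 falls (12.7% and 3.17%, against 25.6% and 4.09% of all dim genes). The 45 carriers of the middle group had 9 rises and 18 falls (against 23% and 18.8% of all genes in that group). The 29 bright carriers had 0 rises and 7 falls (against 9.59% and 28.2% of all genes in that group). The arrays with RPE had a narrower spread of values, with a lower quartile of 27.8 to 28.4 against 24.9 to 26 in retina and an upper quartile of 265 to 271 against 285 to 293. Its part in the directions above was not tested beyond the normalization alternatives.

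**Figure D4:**
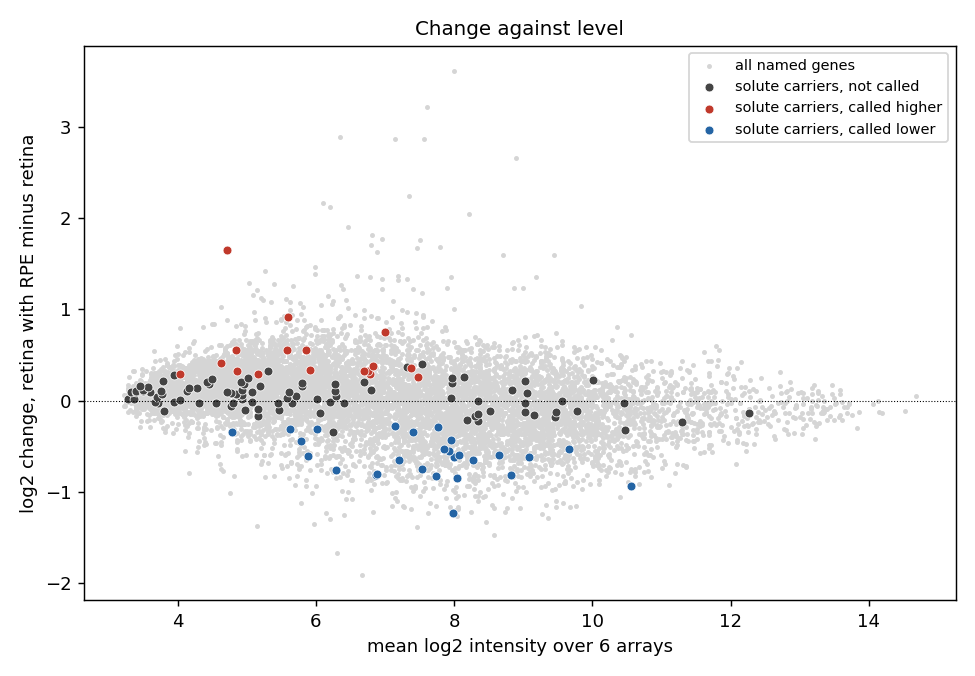
Log2 change, retina with RPE minus retina, against mean log2 intensity over 6 arrays, for all named genes (light grey) and the 137 solute carrier genes (dark grey not called, red called higher, blue called lower). Red points lie among dim and middle levels, and the 7 blue points of the bright group reach -0.93 at slc7a6os.

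A single probe set stands behind 120 of the 137 genes, and 17 genes have more than 1. In 10 of these 17 the probe sets lay on both sides of 0, and in 7 on the same side. Only slc30a9 and slc4a2a had more than 1 called probe set, and in both the calls opposed each other, with the brightest probe set lower. In both, the identifier of the brightest probe set has the letter A and those of the rising ones the letter S. By this letter, 11 of 88 genes with an A probe set rose and 17 fell (12.5% and 19.3%, against 16.7% and 20.7% of all such genes). With an S probe set 6 of 49 rose and 10 fell (12.2% and 20.4%, against 22.3% and 13.2%), so falls outnumbered rises there among the carriers and rises outnumbered falls among all genes.

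**Figure D5:**
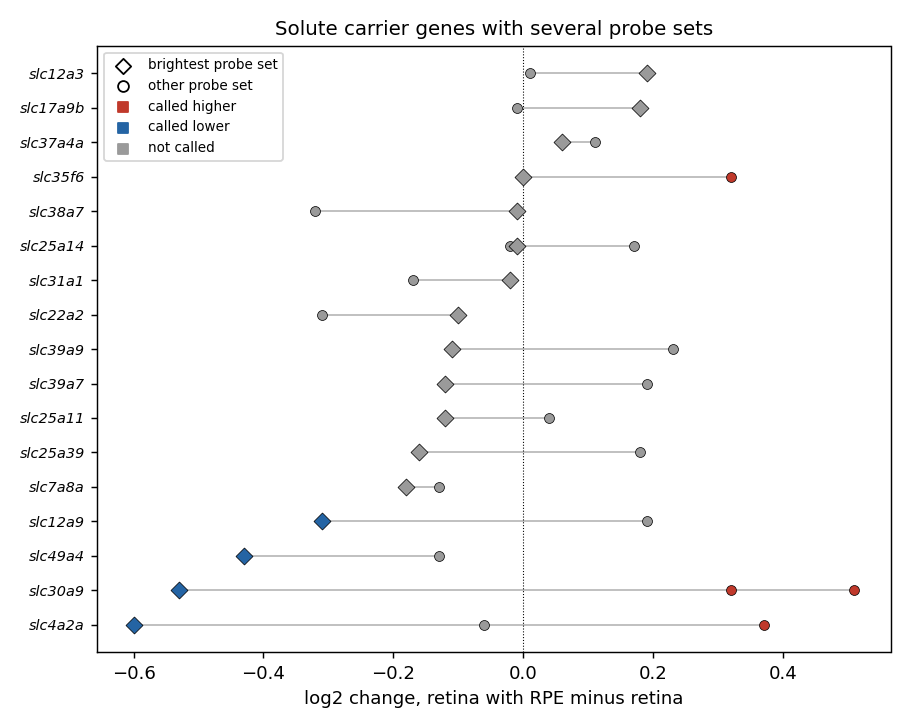
Log2 change of every probe set of the 17 solute carrier genes with more than 1 (diamond, the brightest probe set, used for the gene; circle, other probe sets), coloured by call, with a line joining those of a gene. Only slc30a9 and slc4a2a have called probe sets on both sides of 0, at -0.53 and 0.51 and at -0.60 and 0.37.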

How the data were processed

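The deposited values are intensities on a linear scale. Per the submitters' processing notes, the authors used RMA, affy and R 2.2.0, listed without an order. Which arrays were normalized together is not known. Array medians were 68.7 to 69.6 in retina and 73.2 to 74.5 with RPE. Each pool gave 33 ng of RNA to a labelling with repeated amplification, per the labels' protocols. The labels call the pools biological replicates. Detection calls were not used here, so dim values have no floor. Precision rests on 3 arrays a group, and no exact permutation test of such groups can fall below p = 0.1. RPE-attached replicates are the pools of retina with RPE.

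Of 15617 probe sets, 115 controls were left out. Names came from the platform annotation: 10795 probe sets had 1 gene, 135 several and 4572 none. All 137 member symbols matched a current gene identifier and 0 changed. Intensities were log2 transformed without a pseudocount and compared in limma 3.58.1 (R 4.3.3, lmFit and eBayes, 2-sided, Benjamini-Hochberg over 15502 probe sets). Intervals are 95% intervals of limma. The fit was tested on simulated data.

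The members, classes and other lists were chosen with earlier results of these data known, and the 2 genes that are not carriers were set apart, and a symbol pattern of the partner list narrowed, after values were seen. The text names the 10 largest called changes each way with separated groups. It also names the 2 largest called of each class with 5 or more genes, and a fixed set of known carriers where measured. Carriers of that set without an entry included slc2a1a, slc2a1b, slc16a1a, slc16a7, slc16a8, slc17a6a, slc17a6b, slc17a7a, slc17a7b, slc12a2, slc24a5 and slc45a2. The remaining called members were also named, after their values were seen, as were uncalled ones beside them. Alternatives were the replicate block, cyclic loess, quantile normalization, centring on ribosomal protein genes, a filter at a mean log2 value of 6, eBayes with trend and robust, array weights, a pseudocount of 16, the median over probe sets, stricter thresholds and leaving out each array. Figures were drawn with matplotlib 3.10.9.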

Additional observations from a re-analysis of the deposited data

How the results depend on the processing

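Of the 44 called genes, 22 kept their call and direction in every alternative that measured them other than the 1.5-fold threshold, and 22 lost it in at least 1, an adjusted p under 0.01 included. The count of 17 rises and 27 falls became 6 and 23 of 67 genes under the filter on dim probe sets. Over all genes that filter gave 781 rises and 1264 falls of 5439. At an adjusted p under 0.01 there were 7 rises and 18 falls, against 822 and 831 of all 8793 genes. At 1.5-fold or more there were 3 rises and 16 falls, against 342 and 538. Called shares at these settings were 43.3%, 18.2% and 13.9%, against 37.6%, 18.8% and 10.0% of all genes. The median of 0.026 moved to -0.025 under cyclic loess, -0.028 under quantile normalization, -0.130 under the filter, 0.055 with the median over probe sets and 0.072 after centring on ribosomal protein genes, so its sign is not settled. Leaving out 1 array gave medians of 0.016 to 0.044, 12 to 16 rises and 21 to 28 falls. The called share was then 24.1% to 32.1%, against 23.9% to 34.5% of all genes. The genes slc30a9 (0.51) and slc4a2a (0.37) turned with the median over probe sets. Uncalled genes that turned were slc16a1b (-0.05 under cyclic loess, -0.06 under quantile normalization), slc16a3b (-0.09, -0.08, and -0.08 to 0.12 without single arrays) and slc4a4b (-0.05, -0.04, and -0.01 to 0.21 without single arrays).

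With the replicate number as a block the counts were 20 rises and 27 falls, 34.3% called against 39.2% of all genes. Same-numbered arrays correlated in their deviations at 0.175, 0.079 and 0.13, each the best match of its number, but nothing in the labels pairs them. The codes that close the sample titles end in different numbers between the groups for replicates 2 and 3. The labels do not say what these numbers count.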
